A study of Homo sapiens with 10 samples.

Results

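The IFIT and IFI genes described here are 9 interferon-induced genes, namely IFIT1, IFIT2, IFIT3, IFI6, IFI16, IFI27, IFI35, IFI44 and IFI44L, of 18352 genes with a named probe on the array. They were taken by name: every probe that the platform's gene table assigns to a listed symbol was used, whatever its values, which gave 12 probes. Expression was measured on 10 Illumina BeadChip arrays of OCI-LY10 cells, a human lymphoma line (diffuse large B-cell lymphoma, activated B-cell type). Cells of 5 samples had received 1 micromolar CC-122 and those of the other 5 the solvent DMSO alone, each for 18 hours, and no genetic change was named for either group. CC-122 (avadomide) is a cereblon ligand, cereblon being the part of a ubiquitin ligase that selects its targets. The model is a single cell line at a single dose and time. The labels number the replicates 1 to 5 but do not state that they were separate cultures, and every p-value here therefore reflects only the spread among these arrays, part or all of which may be technical.

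Interferons bind receptors on the cell surface and activate the kinases JAK1 and TYK2. The signal reaches the transcription factor complex ISGF3, which contains STAT2 and IRF9. ISGF3 binds the interferon-stimulated response element (ISRE) in the promoters of antiviral genes, and the gamma-activated site (GAS) is another element of interferon-responsive promoters. IFIT proteins are cytoplasmic and built of tetratricopeptide repeats, and they bind viral RNA or the translation machinery. The IFI symbols collect unrelated proteins that were named for their induction by interferon, among them small membrane proteins (IFI6, IFI27), a nuclear DNA sensor (IFI16) and the antiviral proteins IFI35, IFI44 and IFI44L.

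Promoter windows are shown as a description of the letters around the starts of these genes, and whether they bear on the changes was not tested. RefSeq (GRCh38.p14) gave 12 windows for 8 of the genes, each running from 250 bases before to 50 after an annotated start, and IFIT2 had no entry. In the lines that follow, read 5′ to 3′ on the strand of the gene, capitals mark matches to the core of the ISRE (TTTC, any 2 bases, then TTTC) on either strand. The first window is that of IFIT1 (chr10:89392373-89392672, plus strand), the next pair are those of IFIT3 (chr10:89327747-89328046 and chr10:89332279-89332578, plus strand), after them comes that of IFI6 (chr1:27672143-27672442, minus strand), and the last are those of IFI27 (chr14:94110486-94110785), IFI44L (chr1:78620198-78620497) and IFI35 (chr17:43006534-43006833), on the plus strand.
IFIT1: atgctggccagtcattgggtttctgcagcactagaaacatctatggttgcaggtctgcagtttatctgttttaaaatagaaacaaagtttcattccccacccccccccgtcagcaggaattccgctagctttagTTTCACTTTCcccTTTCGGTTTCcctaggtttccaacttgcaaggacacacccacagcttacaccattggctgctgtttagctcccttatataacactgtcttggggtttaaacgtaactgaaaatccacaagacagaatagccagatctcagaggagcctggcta
IFIT3 first start: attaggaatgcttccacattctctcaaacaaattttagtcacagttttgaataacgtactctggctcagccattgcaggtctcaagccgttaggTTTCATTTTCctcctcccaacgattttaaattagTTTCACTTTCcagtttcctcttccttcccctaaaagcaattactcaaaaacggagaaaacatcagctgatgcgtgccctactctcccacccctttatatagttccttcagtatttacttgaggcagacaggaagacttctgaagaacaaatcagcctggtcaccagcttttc
IFIT3 second start: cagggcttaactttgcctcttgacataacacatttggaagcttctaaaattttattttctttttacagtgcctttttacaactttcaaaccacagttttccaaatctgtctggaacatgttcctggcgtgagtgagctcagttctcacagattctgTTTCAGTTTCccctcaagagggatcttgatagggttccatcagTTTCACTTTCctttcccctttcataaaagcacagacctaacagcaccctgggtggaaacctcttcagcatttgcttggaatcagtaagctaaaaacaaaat
IFI6: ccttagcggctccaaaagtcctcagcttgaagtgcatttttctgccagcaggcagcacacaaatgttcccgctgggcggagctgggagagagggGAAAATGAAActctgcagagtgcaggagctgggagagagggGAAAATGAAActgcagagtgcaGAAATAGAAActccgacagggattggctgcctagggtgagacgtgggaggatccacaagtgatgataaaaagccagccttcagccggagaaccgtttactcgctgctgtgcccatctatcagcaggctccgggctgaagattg
IFI27: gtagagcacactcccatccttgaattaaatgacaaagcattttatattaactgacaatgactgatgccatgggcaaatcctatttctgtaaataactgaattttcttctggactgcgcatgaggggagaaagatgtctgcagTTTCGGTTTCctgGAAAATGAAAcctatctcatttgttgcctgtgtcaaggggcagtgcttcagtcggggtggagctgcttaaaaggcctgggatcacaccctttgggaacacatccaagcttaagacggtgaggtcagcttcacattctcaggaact
IFI44L: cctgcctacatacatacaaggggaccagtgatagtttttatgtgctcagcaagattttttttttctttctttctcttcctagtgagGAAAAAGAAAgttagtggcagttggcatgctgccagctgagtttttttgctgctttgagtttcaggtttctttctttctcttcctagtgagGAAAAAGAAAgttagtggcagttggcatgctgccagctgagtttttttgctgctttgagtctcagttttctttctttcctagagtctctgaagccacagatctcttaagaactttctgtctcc
IFI35: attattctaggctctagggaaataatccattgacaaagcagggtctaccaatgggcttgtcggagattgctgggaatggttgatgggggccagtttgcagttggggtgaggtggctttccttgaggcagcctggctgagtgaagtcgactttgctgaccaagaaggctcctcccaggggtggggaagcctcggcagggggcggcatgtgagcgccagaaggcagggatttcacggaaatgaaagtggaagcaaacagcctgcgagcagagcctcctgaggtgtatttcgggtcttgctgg

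The ISRE core was present in windows of 6 of the 8 genes (75%). Counted by window, it was present in 9 of their 12 windows, against 1255 of all 35116 promoter windows of the same length (3.57%). The windows of the IFI27 starts overlap, as do those of the IFI44 starts, so the same matches there are counted in both windows. IFIT1 held 2 matches, the first beginning at position -116 and the second at -103, where -1 is the base before the start. IFI6 held 3 matches, which began at -156, -115 and -93 and lay on the opposite strand. Both starts of IFIT3 had 2 matches each, IFI44L had 2, on the opposite strand, and IFI44 had a single one, at -18 of its first start. The windows of IFI35 and IFI16 did not contain these letters. The GAS letters TTCNNNGAA were found in windows of 2 of the 8 genes (25%), and by window in 3 of the 12, against 2689 of all windows (7.66%). They lay at -22 in IFI35 and at -101 in IFI27, where they overlapped both of its ISRE core matches. A match is a description of letters and not a binding site, and a missing match says only that the letters are not in that window.

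**Figure D1:**
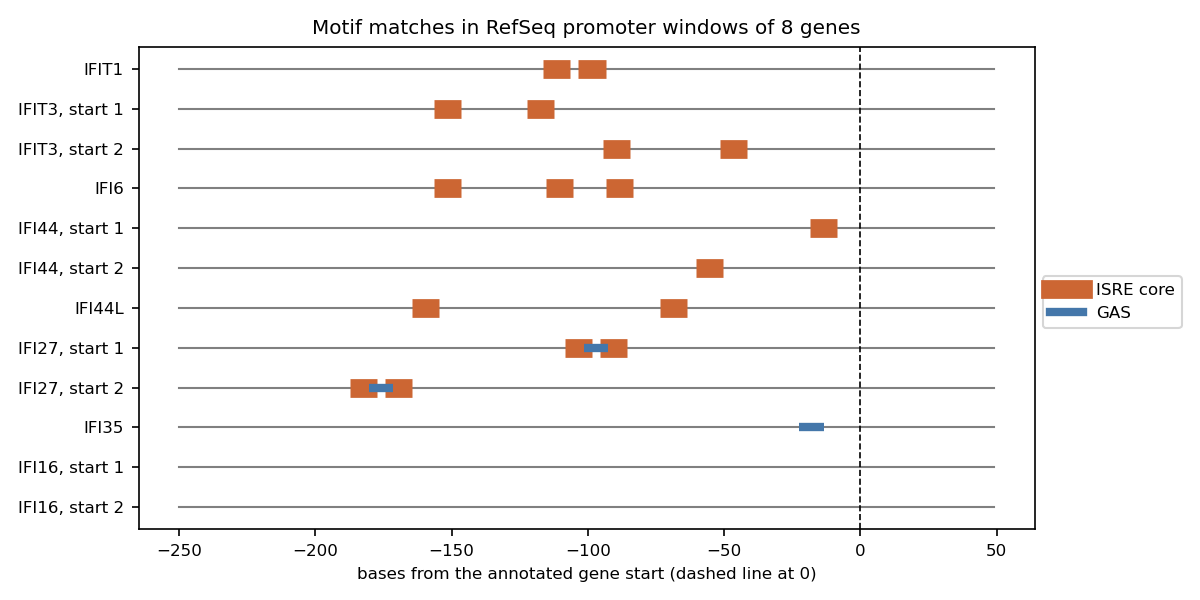
Positions of ISRE core matches and GAS matches in the promoter windows of the IFIT and IFI genes, on an axis of bases from the annotated start. ISRE core matches lie between -187 and the start in the windows that hold one, and the IFI35 and IFI16 windows hold none.

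Several members sit side by side in the genome, in the same GRCh38.p14 annotation. On chromosome 10, IFIT2 is followed by IFIT3, IFIT1B, IFIT1 and IFIT5 with no other coding gene between them. IFI44L and IFI44 adjoin on chromosome 1, IFI16 adjoins its relative AIM2 on the same chromosome, and IFI27 lies between IFI27L1 and IFI27L2 on chromosome 14. IFIT5 and IFIT1B had no named probe here.

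After CC-122, 8 of the 12 probes rose and none fell, and the rises covered 8 of the 9 genes, with IFI16 the exception. Of the 8 calls, 4 came from probes that no DMSO array detected, of IFIT2, IFIT3, IFI27 and IFI44L. These are the only calls of those genes and say nothing beyond the filter on detection, as explained below. In RNA of whole cultures, a change in the share of cells with a transcript and a change in its amount per cell cannot be told apart. A probe counted as called at an adjusted p below 0.05 in a limma fit over the 17125 probes kept, a probe being kept if its detection p was below 0.05 on at least 5 of the 10 arrays. Over all kept probes, 5.77% were called higher and 4.34% lower (988 and 744 probes, together 10.1%). When arrays were scaled by their medians in place of quantiles, 566 were higher and 105 lower, which moved the higher share of calls from 57.0% to 84.4%. The CC-122 and DMSO values did not overlap for 7 of the 12 probes, all of them higher after CC-122, against 5.82% of kept probes with every CC-122 array above every DMSO array and 4.76% with every one below. These 7 include the 4 probes that no DMSO array detected. The median log2 change of the 12 probes was 0.49 (0.37 with lower bounds, explained next, in place of fitted values), and that of all kept probes was -0.02.

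Most of these transcripts were close to the detection limit. All 12 probes were kept, but only 3 were detected on every array, and 9 were detected on fewer than 5 DMSO arrays. A further limit applies to 4 probes, of IFIT2, IFIT3, IFI27 and IFI44L, which no DMSO array detected and which therefore passed the filter only through CC-122 arrays. All 32 kept probes of that kind on the array were called higher (100%), so those 4 calls say nothing beyond the filter. For them the fold is a lower bound, for which each DMSO array was taken at its lowest detected signal or at the probe's own value, whichever was higher, and the bound depends on the background correction. It carries no sampling error, and the fitted changes of these 4 probes were smaller under the other background corrections. The probes of IFIT1 and IFI44, each detected on 1 DMSO array, also could not have been kept without their CC-122 arrays. Without the filter on dim probes, 6 of the 12 were called higher, against 1.74% of all 48106 probes. Values are log2 normalized intensities throughout, on which the lowest detected signal of an array was 4.63 to 4.67. They do not allow one gene's level to be set against another's, since probes differ in brightness.

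**Figure D2:**
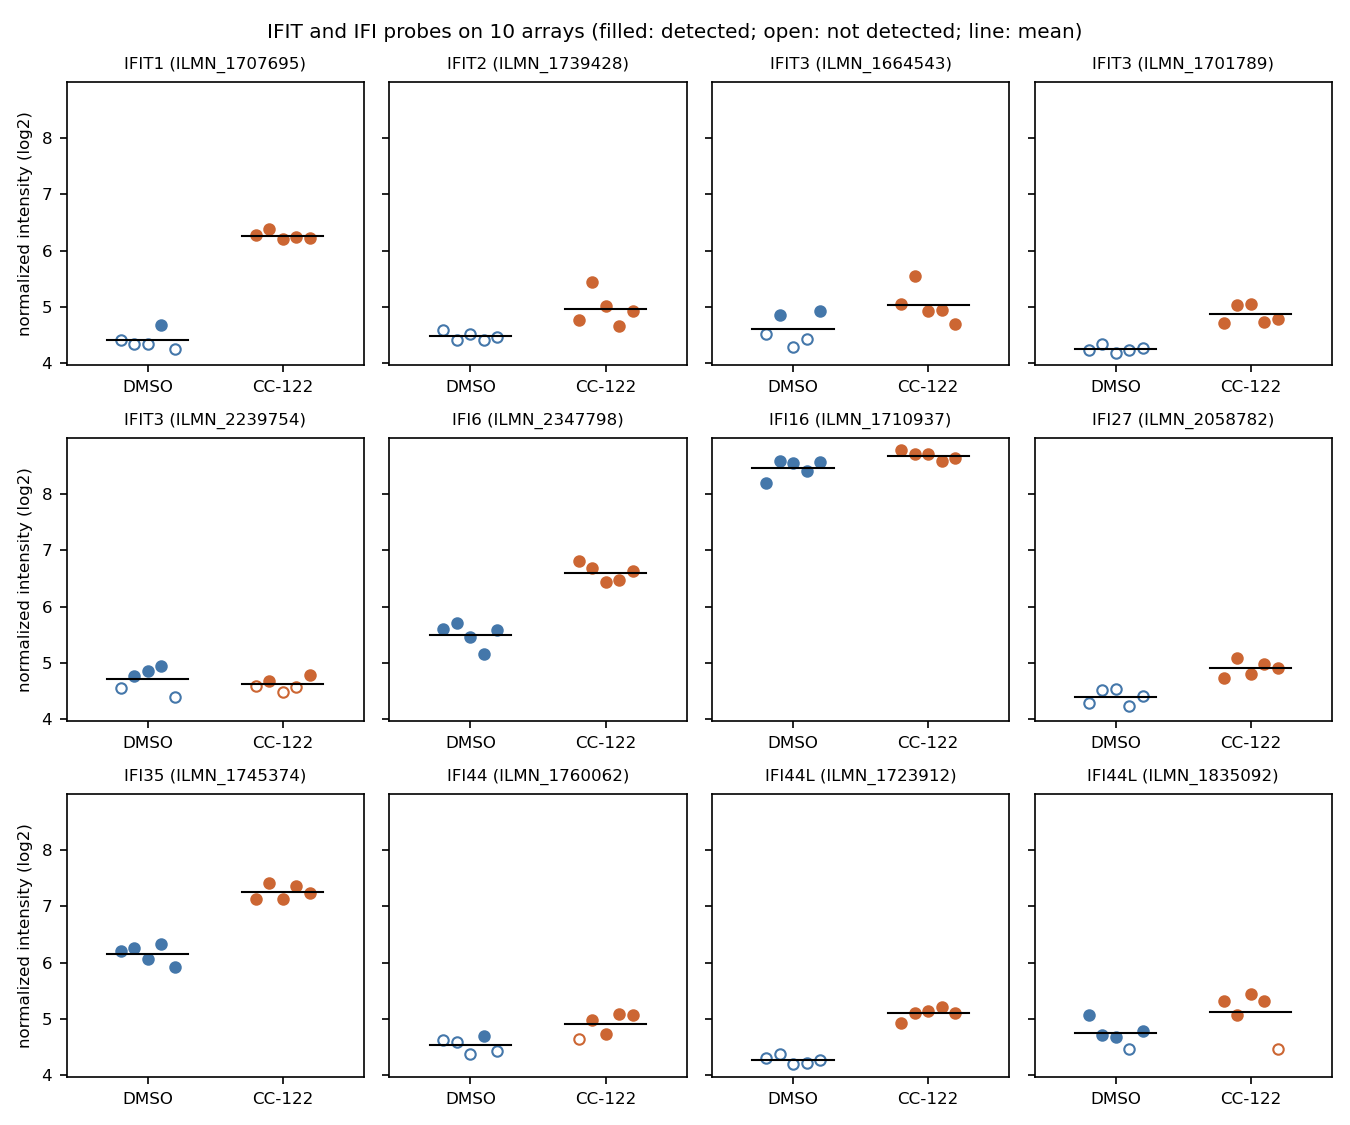
Log2 normalized intensity of each of the 12 IFIT and IFI probes on each of the 10 arrays, DMSO and CC-122, with the group means. The groups are fully apart for IFIT1, IFIT2, IFI6, IFI27 and IFI35 and for 1 probe each of IFIT3 and IFI44L, and they overlap for the other probes.

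Among the IFIT genes, IFIT1, which binds capped viral RNA that lacks the methyl mark of host RNA, gave the largest fitted change of the 12 probes. The values of its probe (ILMN_1707695) on DMSO replicates 1 to 5 were 4.41, 4.34, 4.35, 4.69 and 4.26. On CC-122 replicates 1 to 5 they were 6.27, 6.39, 6.20, 6.24 and 6.22. Every CC-122 array thus lay above every DMSO array, and the 5 treated arrays were closely alike. Mean values were 4.41 ± 0.16 and 6.27 ± 0.07 (SD, n = 5 in each group), a 3.62-fold rise with a log2 change of 1.86 ± 0.09 (SE, adjusted p = 7.40e-08). Only 1 DMSO array detected the probe, which passed the filter through its CC-122 arrays, so the size rests on the background correction: the log2 change was 0.92 with a correction that adds an offset of 50 in place of 16, and 0.79 with no correction. IFIT1 was called in these and in each of the other alternatives that kept its probe.

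IFIT2, which binds IFIT1 and IFIT3 and promotes cell death when abundant, was below detection on all DMSO arrays and detected on all CC-122 arrays. Its values (ILMN_1739428) were 4.59, 4.42, 4.52, 4.41 and 4.46 after DMSO. They were 4.77, 5.44, 5.01, 4.66 and 4.94 after CC-122. The lowest CC-122 value stood only 0.07 above the highest DMSO value, and replicate 2 was the highest of its group. The fitted log2 change was 0.48, but 0.21 with the offset of 50 and 0.17 without background correction. Under the main correction the lower bound of the IFIT2 rise was 1.24-fold (means 4.48 ± 0.07 and 4.96 ± 0.30, SD, n = 5, adjusted p = 0.0288). This call was lost without the filter (adjusted p = 0.0683), with median scaling (0.0832), with the replicate number as a block (0.0529), and when DMSO replicate 2, 3, 4 or 5 or CC-122 replicate 3 or 5 was left out, over a range of 0.0136 to 0.0832 across alternatives.

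IFIT3, which stabilizes IFIT1 and strengthens its grip on RNA, was read by 3 probes, of which 1 was called. The called probe (ILMN_1701789), assigned to transcript NM_001031683, stood at 4.23, 4.34, 4.19, 4.24 and 4.26 on DMSO arrays. On CC-122 arrays it stood at 4.71, 5.04, 5.06, 4.73 and 4.79. No DMSO array detected it and every CC-122 array did, with no overlap, and the lower bound of its rise was 1.16-fold (means 4.25 ± 0.06 and 4.87 ± 0.17, SD, n = 5, adjusted p = 5.01e-04).

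A second IFIT3 probe for that transcript (ILMN_1664543) ran from 4.30 to 4.92 after DMSO and from 4.70 to 5.55 after CC-122. Its groups overlapped, and its log2 change of 0.43 ± 0.16 (SE, 95% interval 0.08 to 0.78) did not pass the test (adjusted p = 0.126). The remaining IFIT3 probe (ILMN_2239754), assigned to NM_001549, ran from 4.39 to 4.95 after DMSO and from 4.49 to 4.79 after CC-122. Its log2 change was -0.08 ± 0.11 (SE, 95% interval -0.32 to 0.15, adjusted p = 0.717), and 3 DMSO and 2 CC-122 arrays detected it.

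Whether the probes changed unequally could be tested only for the pair detected in both groups: ILMN_1664543 changed by 0.52 log2 units more than ILMN_2239754, which did not pass (exact permutation test, two-sided p = 0.103, adjusted p = 0.138 over 4 probe pairs). The change of ILMN_1701789 has only a lower bound, so its difference from the others was not measured. The probe sequences were not used here, so the place of each probe in the transcripts was not examined.

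IFI6 and IFI27 encode small hydrophobic proteins of cell membranes that share a domain, and both are known as antiviral proteins and as modulators of cell death. IFI6 was detected on every array. Its values (ILMN_2347798) were 5.59, 5.70, 5.46, 5.16 and 5.58 after DMSO. They were 6.81, 6.68, 6.43, 6.47 and 6.63 after CC-122. The groups were far apart and each was compact, with a 2.15-fold rise (means 5.50 ± 0.21 and 6.60 ± 0.16, SD, n = 5, log2 change 1.10 ± 0.11 SE, adjusted p = 3.75e-05). With the offset of 50 the log2 change was 0.64 and without background correction it was 0.57, still called in both.

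IFI27 was not detected on any DMSO array. Its values (ILMN_2058782) were 4.30, 4.52, 4.54, 4.23 and 4.41 after DMSO. They were 4.73, 5.08, 4.81, 4.98 and 4.92 after CC-122, where all arrays detected it. No CC-122 value reached down to a DMSO value, and the lower bound of the rise was 1.19-fold (means 4.40 ± 0.13 and 4.90 ± 0.14, SD, n = 5, adjusted p = 0.00270). The call was lost with median scaling (adjusted p = 0.0832), the upper end of a range that began at 0.00147.

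IFI35, which pairs with the related protein NMI, was detected on every array. Its values (ILMN_1745374) were 6.21, 6.26, 6.07, 6.33 and 5.92 after DMSO. They were 7.12, 7.41, 7.12, 7.35 and 7.24 after CC-122. All CC-122 arrays exceeded all DMSO arrays, and the rise was 2.13-fold (means 6.16 ± 0.16 and 7.25 ± 0.13, SD, n = 5, log2 change 1.09 ± 0.09 SE, adjusted p = 1.08e-05). The log2 change was 0.75 with the offset of 50 and 0.68 without background correction. NMI itself stood at 7.02 ± 0.35 and 7.25 ± 0.10 (SD, n = 5) and did not pass the test (log2 change 0.23 ± 0.14 SE, 95% interval -0.08 to 0.55, adjusted p = 0.383).

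IFI44L and IFI44 are neighbouring relatives, both antiviral, and IFI44L is also known as a feedback regulator of interferon responses. The IFI44L probe for NM_006820 (ILMN_1723912) stood at 4.30, 4.38, 4.19, 4.22 and 4.28 after DMSO, where no array detected it. After CC-122 it stood at 4.94, 5.11, 5.14, 5.21 and 5.10, detected on all. The gap between groups was wider than the spread within either, and the lower bound of the rise was 1.36-fold (means 4.27 ± 0.07 and 5.10 ± 0.10, SD, n = 5, adjusted p = 1.08e-05).

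A second IFI44L probe (ILMN_1835092), made for the expressed sequence tag BQ437417, gave 5.06, 4.72, 4.69, 4.47 and 4.79 after DMSO. After CC-122 it gave 5.31, 5.08, 5.44, 5.32 and 4.47. CC-122 replicate 5 lay with the lowest DMSO array while the other CC-122 arrays lay above all DMSO arrays. The log2 change was 0.38 ± 0.17 (SE) and did not pass the test (adjusted p = 0.212), but without CC-122 replicate 5 it was 0.54 and did (adjusted p = 0.0156, with a range of 0.0156 to 0.428 across alternatives). The change of the NM_006820 probe has only a lower bound, so whether the probes changed unequally was not measured.

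IFI44 gave the least secure of the 8 calls. Its values (ILMN_1760062) were 4.63, 4.60, 4.37, 4.70 and 4.43 after DMSO, where 1 array detected it. They were 4.65, 4.98, 4.73, 5.08 and 5.06 after CC-122, where 4 arrays did. CC-122 replicate 1 lay within the DMSO range, and the fitted fold was 1.28 (means 4.55 ± 0.14 and 4.90 ± 0.20, SD, n = 5, log2 change 0.36 ± 0.10 SE, adjusted p = 0.0490). The probe could not have been kept without its CC-122 arrays, and its DMSO values lay near the detection limit. The size therefore rests on the background correction, and the log2 change was 0.13 with no correction. The call was lost in 13 of 20 alternatives, with adjusted p from 0.0229 to 0.382, among them the offset of 50, where the log2 change was 0.15, and leaving out DMSO replicate 1, 2, 3 or 5 or CC-122 replicate 2, 4 or 5.

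IFI16, a nuclear sensor of DNA of the AIM2 family, was the brightest of the 12 probes and the only gene with no call. Its values (ILMN_1710937) were 8.19, 8.58, 8.55, 8.40 and 8.57 after DMSO. They were 8.77, 8.71, 8.70, 8.58 and 8.63 after CC-122. DMSO replicate 1 was the lowest array, and the highest DMSO array and the lowest CC-122 array met at 8.58. The log2 change was 0.22 ± 0.09 (SE, 95% interval 0.03 to 0.41, adjusted p = 0.140), which leaves room for a rise of up to 0.41 log2 units. Without background correction it was 0.19 and passed narrowly (adjusted p = 0.0492, with a range of 0.0492 to 0.537 across alternatives). AIM2, the cytoplasmic DNA sensor beside IFI16 in the genome, fell from 10.06 ± 0.09 to 9.70 ± 0.08 (SD, n = 5, log2 change -0.36 ± 0.07 SE, adjusted p = 0.00611), a call that median scaling removed.

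**Figure D3:**
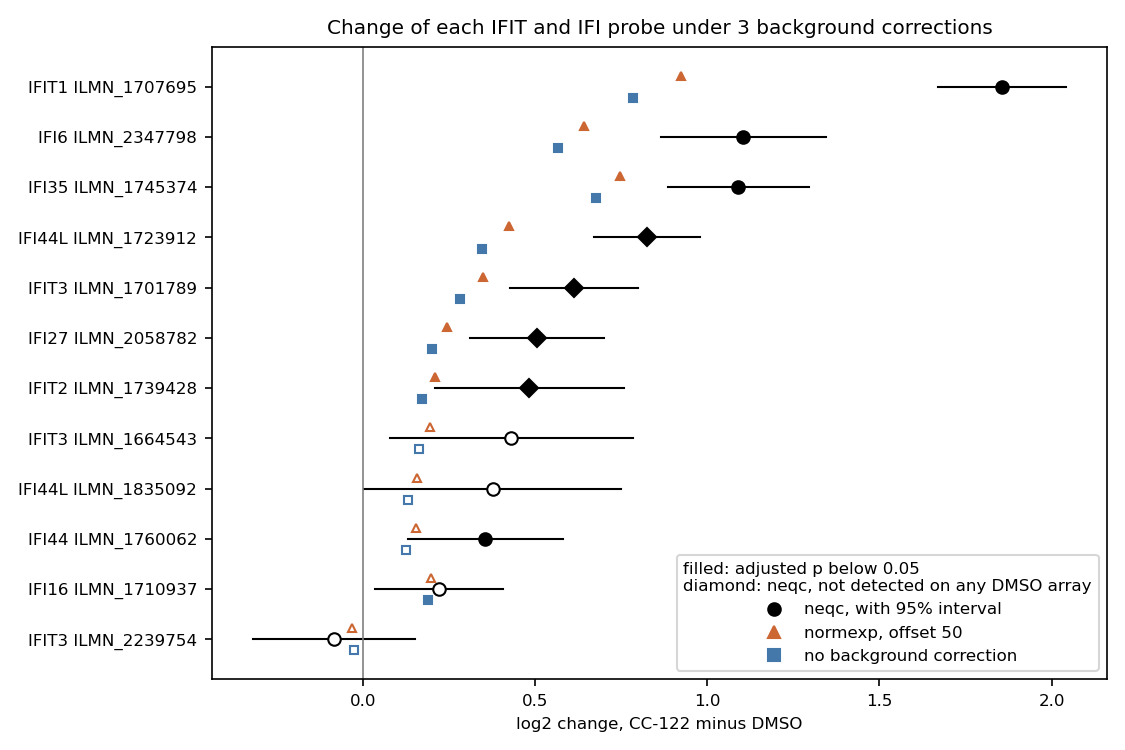
Log2 change (CC-122 minus DMSO) of each of the 12 probes with its 95% interval, and the same change under other background corrections. IFIT1 lies farthest to the right at 1.86, IFI6 and IFI35 follow near 1.1, and the interval of the NM_001549 probe of IFIT3 (-0.32 to 0.15) lies across 0. The interval of the second IFI44L probe, ILMN_1835092 (0.004 to 0.75), begins nearest to 0, followed by that of IFI16 (0.03 to 0.41).

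By the brightest kept probe of each gene, the fitted log2 changes ran in the order IFIT1, IFI6, IFI35, IFI27, IFIT2, IFIT3, IFI44L, IFI44 and IFI16. With all arrays, none of the neighbouring pairs in that order that can be read differed past the threshold after adjustment over 8 pairs. IFIT1 exceeded IFI6 by 0.75 log2 units (exact permutation test, two-sided p = 0.0159, adjusted p = 0.0635 over 8 pairs). Only 1 DMSO array detected IFIT1, so the size of this difference rests on the background correction. That difference passed without DMSO replicate 4, at 0.91 (exact permutation test, adjusted p = 0.0317), but was 0.28 with the offset of 50 and 0.22 without background correction (exact permutation tests, adjusted p = 0.127 in both). The pair of IFI6 and IFI35 and the neighbours from IFIT3 down to IFI16 differed by 0.01 to 0.13 log2 units (exact permutation tests, adjusted p = 0.952 in each), and the order of IFI6 and IFI35 and of IFI44 and IFI16 turned with the background correction. IFIT2 and IFI27 were undetected after DMSO, so their fitted values and their places in the order are not measured, and the 3 pairs that hold them are not read here. The array with the extreme value differed between members: CC-122 replicate 2 was the highest of its group for 5 of the 12 probes and replicate 1 the lowest for 5. The bright array, CC-122 replicate 3, had a median raw intensity of 108.9 against 74.0 to 81.6 on the others, and leaving it out of the normalization as well left 7 of the 12 probes called higher.

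The members were set beside lists of related genes, counted at 1 probe a gene. Counted that way, 6 of the 9 members were higher and 3 (IFIT3, IFI44L and IFI16) were not called, since the brightest probes of IFIT3 and IFI44L are those that did not pass. Of the 6 calls, 2 (IFIT2 and IFI27) came from probes that no DMSO array detected, and they say nothing beyond the filter. The probes of IFIT1 and IFI44, each detected on 1 DMSO array, also could not have been kept without their CC-122 arrays. Among the called members, only IFI6 and IFI35 were detected on every array. In the same count, 7.13% of the 9041 genes tested were higher and 5.38% lower, with a median log2 change of -0.01. Of 8 close relatives of the members, 4 could be tested, of which AIM2 fell and none rose (median -0.003). IFI27L1 and IFI27L2, the relatives that flank IFI27, had log2 changes of -0.18 ± 0.07 and 0.17 ± 0.08 (SE, adjusted p = 0.168 and 0.239). MNDA and PYHIN1, further relatives of IFI16, were not kept.

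Of 12 genes of interferon signalling, 9 could be tested, of which 2 rose and 2 fell (median 0.11). IRF7, a transcription factor that amplifies interferon production, rose from 6.05 ± 0.15 to 7.91 ± 0.08 (SD, n = 5, log2 change 1.86 ± 0.08 SE, adjusted p = 5.94e-08). IRF9, the DNA-binding part of ISGF3, rose from 7.29 ± 0.11 to 8.73 ± 0.08 (SD, n = 5, log2 change 1.44 ± 0.07 SE, adjusted p = 1.82e-07). JAK1 had a log2 change of -0.36 ± 0.07 (SE, adjusted p = 0.00449), and SOCS1, an inhibitor of JAK kinases, one of -0.34 ± 0.10 (SE, adjusted p = 0.0484). Only 1 of these falls was called when any array other than DMSO replicate 5 or CC-122 replicate 1 was left out, and none with median scaling. The receptor genes IFNAR1 and IFNAR2, and TYK2, IRF1 and IRF3, did not pass the test. STAT2 had no named probe, and USP18, which removes ISG15 from proteins, was detected on 1 DMSO and 3 CC-122 arrays and was not kept.

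Among 7 genes of nucleic acid sensing, 3 could be tested and IFIH1, a sensor of double-stranded RNA, rose with a log2 change of 0.39 ± 0.10 (SE, adjusted p = 0.0263), a call lost with median scaling, without the filter, and whenever an array other than DMSO replicate 5 or CC-122 replicate 1 or 4 was left out. TBK1 and IRF3 did not pass the test. Of 24 other interferon-stimulated genes, 14 could be tested, and 13 rose and none fell (median 1.23), while LY6E did not pass (log2 change -0.17 ± 0.09 SE, adjusted p = 0.312). These genes were chosen with earlier results of these data known, so their count is not independent support. The 13 include IFIH1 again, and OAS2, which was detected on 1 DMSO and 4 CC-122 arrays and could not have been kept without the latter. MX1, an antiviral GTPase, was undetected after DMSO, so its call says nothing beyond the filter. The lower bound of its rise was 15.9-fold (limma fit, adjusted p = 2.06e-10). The next in size were ISG15, a ubiquitin-like modifier, with a log2 change of 2.52 ± 0.10, IFITM1, which blocks virus entry, with 1.88 ± 0.11, and EPSTI1 with 1.73 ± 0.12 (SE). PARP9, an ADP-ribosyltransferase family member, followed with 1.51 ± 0.11 and OAS1, which makes the activator of RNase L, with 1.39 ± 0.15 (SE). Among the members only IFIT1 had a fitted change in this range. The ISRE core was present in windows of 14 of the 20 genes of this list that had one (70%), of 4 of 8 relatives (50%) and of 1 of 7 signalling genes (14.3%). Not all relatives could be tested, and their matches were not compared with their changes gene by gene.

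**Figure D4:**
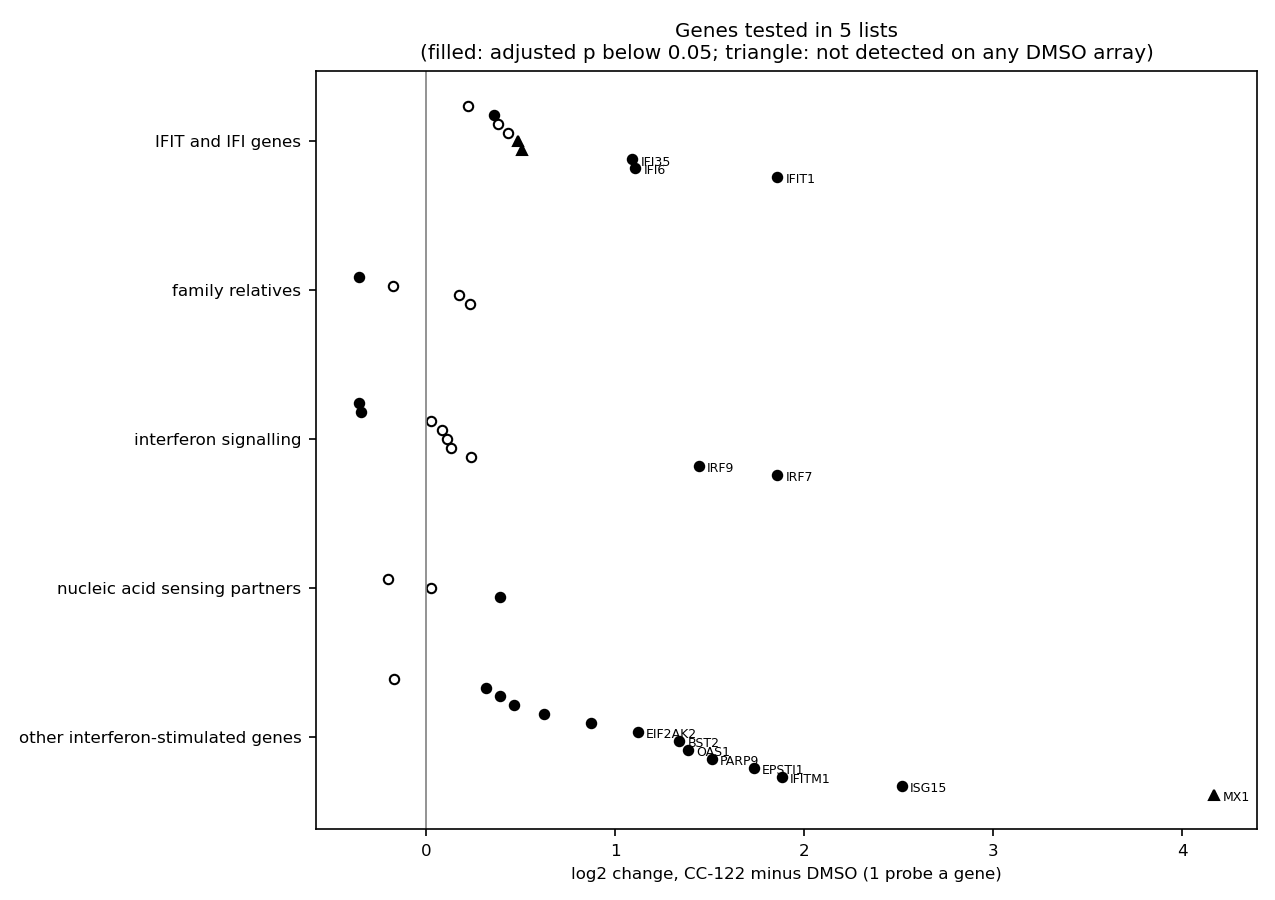
Log2 change (CC-122 minus DMSO) of each gene tested in 5 lists, at 1 probe a gene, with filled points for called genes. The other interferon-stimulated genes reach higher values than the IFIT and IFI genes, and the relatives of the IFIT and IFI genes lie around 0.

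Interferon transcripts themselves were at the background. Of 21 interferon genes, 20 had a named probe, with 28 probes in all. None was kept, 21 probes were detected on no array, and none was detected on more than 2 arrays of a group. Detection was called in 11 of 280 probe and array combinations (3.93%), 5 after DMSO and 6 after CC-122, where the threshold of 0.05 itself passes 5% of background signals. The measurement is of transcripts at 18 hours only.

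The arrays bore the marks of B cells. CD79B stood at 12.05 ± 0.07 after DMSO, CD79A at 11.28 ± 0.09 and MS4A1 at 9.45 ± 0.09 (log2, SD, n = 5), and these and CD22 and BLK were detected on all arrays. Mean levels of the 5 B-cell markers tested were 9.51 to 9.63 on DMSO arrays and 9.42 to 9.59 on CC-122 arrays. Of these 5, CD79B and BLK rose (log2 changes 0.27 ± 0.06 and 0.27 ± 0.07 SE, adjusted p = 0.0170 and 0.0270), CD22 and MS4A1 fell (-0.78 ± 0.10 and -0.36 ± 0.09 SE, adjusted p = 2.70e-04 and 0.0272), and CD79A was not called. Of 8 marker genes of T and NK cells none was kept, and CD3D, NKG7 and NCAM1 were detected on no array. Of 8 markers of monocytes and macrophages, CD14 and CD68 were kept and neither passed the test, while LYZ, CSF1R and MARCO were detected on no array. The mean level of CD14 and CD68 was 5.13 to 5.58 on DMSO arrays and 5.26 to 5.81 on CC-122 arrays, and their part in the results was not tested. Of 5 markers of plasmacytoid dendritic cells, only TCF4, which B cells also express, was kept and it did not pass the test.

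The genes whose profile over the 10 arrays was nearest the mean profile of the 9 members were NT5C3A, ARL6IP5, NUCB2, CSTF3 and MARCKS. Likeness was the root mean square difference, on the log2 scale and relative to each gene's own DMSO mean, over 9032 genes, and it ranged from 0.0778 for NT5C3A to 0.10 for MARCKS. The mean profile of the members lay between 0.61 and 0.89 on the CC-122 arrays. It includes fitted values of IFIT2 and IFI27, which no DMSO array detected, and of IFIT1, whose size rests on the background correction. The order of the nearest genes depends on these fitted values. NT5C3A, a nucleotidase, changed by 0.77 ± 0.06 on the log2 scale, ARL6IP5 by 0.71 ± 0.06, NUCB2 by 0.61 ± 0.07, CSTF3 by 0.61 ± 0.06 and MARCKS by 0.73 ± 0.06 (SE), all detected on every DMSO array. They were picked for likeness to the members, so their changes are a description.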

How the data were processed

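RNA of 10 OCI-LY10 samples, 5 per group as the labels give them, was measured on Illumina BeadChips. Per the labels' protocols, a Qiagen miRNeasy kit was used for extraction and an Illumina TotalPrep kit for labelling. The authors deposited linear, non-normalized probe intensity values and a detection p-value for 48107 probes per array, and 1 probe with a missing value was left out. The authors also deposited normalized log2 values for 34468 probes. Each of their 10 columns matched its own array best (r of at least 0.99993 over probes), which settles scale and direction and shows no centring of genes, with a median of 4.54 in each column. The sources used here do not give their normalization method, and these values served as an alternative.

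Between 18043 and 18844 probes were detected per array, and the number of arrays limits the precision. Normalization used the neqc function (limma 3.58.1, R 4.3.3; background inferred from detection p-values, offset 16, quantiles across arrays). Groups were compared by lmFit and eBayes (two-sided), and p-values were adjusted by Benjamini-Hochberg over the 17125 kept probes. Unequal change was tested by exact permutation over arrays. Arrays of a group correlated at 0.989 to 0.993, and no 2 arrays held identical values. The calculation was tested on simulated data. Probes were named by the platform table (26362 probes, 3 of them with several genes, which named none), and 26326 identifiers matched the RefSeq annotation and 36 did not. For lists, the kept probe with the highest mean stood for its gene. Promoter sequences came from RefSeq.

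Named genes were all members with all probes, IRF7, IRF9, STAT2 and USP18 (1 further gene of this rule is not reported here), up to 6 called genes with the largest change in each list, and the 5 genes with the nearest profile. Other genes were named to complete counts or marker checks. The members and lists were chosen with earlier results of these data known. Alternatives covered background correction, scaling, the filter on dim probes, the replicate block, variance trend, array weights, the authors' values and leaving out arrays.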

Additional observations from a re-analysis of the deposited data

How the results depend on the processing

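No member probe changed sign in any alternative tried. The count of member probes higher after CC-122 was 5 with median scaling, 4 with a detection p below 0.01 on at least 5 arrays and 2 among the 3 probes detected on all 10 arrays, and 6 to 8 when an array was left out. The cause of the shifts was not tested, apart from the filters, which tested fewer probes. Over all probes, 1732 were called, 671 with median scaling and 1381 to 1590 when an array was left out. Relatives called lower numbered 0 with median scaling. Signalling genes called lower numbered 1 with the offset of 50, without background correction, without the filter, with the replicate block and with a variance trend, 0 with median scaling, and 1 to 2 when an array was left out. Sensing genes called higher numbered 0 with median scaling and without the filter, and 0 to 1 when an array was left out. Sensing genes called lower numbered 1 without background correction and with the trend. Leaving CC-122 replicate 3 out of the normalization too, chosen after seeing the data, gave 1 signalling gene lower and 0 sensing genes higher.

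Differences that involve IFIT2, IFI27, IFIT3 ILMN_1701789 or IFI44L ILMN_1723912, undetected on all DMSO arrays, are between fitted values and are not read as measured. The difference between the IFI44L probes was 0.27 with the offset of 50 and 0.21 without background correction. Changes of IFI6 and IFI35 then differed by -0.10 and -0.11, and those of IFI44 and IFI16 by -0.043 and -0.064. When an array was left out, a choice added after seeing the data for these pairs, the differences ranged from 0.62 to 0.78 (IFIT3 ILMN_1701789 less ILMN_2239754), 0.28 to 0.54 (IFI44L probes), 0.68 to 0.91 (IFIT1 less IFI6), 0.52 to 0.67 (IFI35 less IFI27), -0.11 to 0.095 (IFI6 less IFI35), -0.074 to 0.10 (IFI27 less IFIT2), -0.034 to 0.14 (IFIT2 less IFIT3), -0.086 to 0.16 (IFIT3 less IFI44L) and -0.10 to 0.23 (IFI44L less IFI44). Same-numbered arrays of the groups deviated together only weakly (correlations of -0.005 to 0.14). For 4 of the 5 DMSO arrays the most similar CC-122 array had the same number, and for DMSO replicate 4 it was replicate 1. In the labels, the description numbers of same-numbered DMSO and CC-122 arrays are also consecutive, but no pairing is stated. The samples were not taken as pairs, and with the replicate block 6 member probes and 1501 of all probes were called. With that block the calls of IFIT2 and IFI44 were lost (limma fit, adjusted p = 0.0529 and 0.0570). Signals near background limit the sizes of the changes, those of IFI6 and IFI35 included, which were smaller under both other background corrections.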
